A study of Rattus norvegicus with 30 samples.

Results

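The livers of rats fed soy protein with added isoflavones (SI) were set against those of rats fed casein with added isoflavones (CI). The arrays were chosen by the diet in their titles, which gave 5 SI and 5 CI arrays, 10 of the 30 arrays of the series. All animals were male Sprague-Dawley rats that arrived at 4 weeks of age, spent 5 days on a commercial diet and were then given 1 of 6 experimental diets for 14 days. The SI diet held 200 g/kg of soy protein and the CI diet 200 g/kg of casein, the main milk protein. Both also held an isoflavone mixture set to the isoflavone level of a tofu diet in the same study, so these 2 groups differed in the protein. Soy protein without added isoflavone (S) and casein without it (C), with 5 animals each, are given beside them as the same exchange of protein in other animals. Each animal gave 1 Affymetrix array of total liver RNA, which reports a normalized fluorescence intensity per probe set. Arrays of 1 diet are biological replicates according to the labels, and with 5 animals per diet their number limits the precision.

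The liver makes fatty acids from carbohydrate through acetyl-CoA, and malic enzyme supplies part of the NADPH this needs. It also breaks down surplus amino acids and makes S-adenosylmethionine, the cell's methyl donor, from methionine. Soy protein holds less methionine than casein, and soy isoflavones are plant compounds that can bind estrogen receptors. When an amino acid runs short, the kinase GCN2 raises translation of the transcription factor ATF4, which turns on genes of amino acid supply such as *Asns*. In rodents fed soy protein in place of casein, lower expression of lipogenic enzymes in the liver is a known response.

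Of 18625 tested probe sets, 2168 (11.6%) differed between SI and CI at an adjusted p under 0.05 by limma, 1025 higher (5.5%) and 1143 lower (6.14%) with soy protein. Counted as 1 probe set a gene, 1342 of 10699 genes (12.5%) passed, 749 higher (7.0%) and 593 lower (5.54%). Most differences were small: 80 of the genes that passed (0.748% of all genes) differed by more than 2-fold, 38 higher and 42 lower, and 7 (0.0654%) by more than 4-fold. Of the 7, *A2m*, *Mat2a*, *Serpina7*, *Pnpla3* and *Kcns2* are described below; the other two, *Ccna1* and a placeholder symbol, were not stable. The split between directions moved with the scaling of the arrays. Quantile normalization gave 1483 higher and 948 lower probe sets, equal median and spread 1338 and 774, and centring each array on its median 2234 and 537. The last also moved the median difference of all tested probe sets to 0.089, against -0.023 as deposited. The array medians lay between 217 and 240 in SI and between 227 and 255 in CI, with means of 227 ± 8.19 and 246 ± 10.7 (SD, n = 5 each; exact two-sided permutation p = 0.0238, adjusted p = 0.0833 over 7 array measures). A count of calls also moved with single arrays, from 1353 without SI replicate 5 to 2343 without C replicate 1, and it was 1365, 1381 and 1410 without CI replicate 4, CI replicate 5 and SI replicate 2. The labels give CI replicate 3 and C replicate 3 the same normalization parameters, and without both arrays 1722 probe sets were called. The 3' minus 5' signal of *Gapdh*, a measure of RNA quality, averaged 0.173 ± 0.0628 in SI and 0.137 ± 0.0528 in CI on the log2 scale (SD, n = 5 each; exact two-sided permutation p = 0.349). A call was termed stable where it held without each single SI or CI array and after quantile normalization, which 631 genes did (5.9%), 384 higher and 247 lower. Genes that passed are stable calls below unless said otherwise; most of those given as not stable were named after their values were seen, to complete the count of a list. Differences are SI minus CI on the log2 scale, ± SE with 5 animals per group, and each list's count can be read against the shares of all genes above. Dim probe sets, under an intensity of 167.6 on average over all arrays, were not tested, and an SI or CI mean of a named gene under that level is noted.

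*A2m* and *Mat2a* had the largest rises of all tested probe sets. *A2m* encodes alpha-2-macroglobulin, a broad protease inhibitor of plasma and a major acute phase protein of the rat. Its intensity was 3446, 3133, 2727, 6668 and 5387 in the SI livers, against 416, 275, 547, 708 and 494 in the CI livers. Every SI liver was above every CI liver, and the gap between the groups was wider than the range within either on the log scale. *A2m* thus rose by 3.11 ± 0.37 (8.64-fold, adjusted p = 3.81e-06 by limma). *Mat2a*, a methionine adenosyltransferase that makes S-adenosylmethionine, stood at 3819, 5505, 4664, 4620 and 3519 in SI and at 932, 926, 840, 753 and 607 in CI. The groups lay far apart with little spread inside either, and this was the smallest p of all tested probe sets. The difference was 2.45 ± 0.18 (5.45-fold, adjusted p = 1.46e-09), and both tested probe sets of the gene passed.

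*Serpina7*, the thyroxine-binding globulin of plasma, had 337, 610, 295, 750 and 842 in SI, against 37.2, 48.2, 289, 204 and 203 in CI. The groups did not overlap, but the lowest SI liver and the highest CI liver were almost level, and the CI mean lay below the filter level. It rose by 2.16 ± 0.53 (adjusted p = 0.0083). *Fmo1*, a flavin monooxygenase that oxidizes nitrogen and sulfur in drugs and dietary compounds, had 6286, 5560, 5946, 8201 and 6855 in SI and 1358, 1190, 1626, 2318 and 2092 in CI. Its groups were separated by more than 2-fold at their nearest arrays, and the rise was 1.97 ± 0.18 (adjusted p = 1.01e-07).

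The sulfotransferase *Sult1c2* rose by 1.87 ± 0.39, and *Cyfip2*, a subunit of the WAVE complex that regulates actin, by 1.81 ± 0.26. *Asns*, asparagine synthetase, rose by 1.70 ± 0.24. The acid phosphatase *Acp3*, the retinoid transporter *Abca4* of photoreceptors and *Pcp4l1*, a relative of a Purkinje cell protein, rose by 1.68 ± 0.26, 1.65 ± 0.27 and 1.63 ± 0.35. *Slc6a6*, the transporter that carries taurine into cells, had 3314, 5343, 6821, 5216 and 7877 in SI, against 2493, 1437, 2960, 1099 and 1507 in CI. The lowest SI liver stood just above the highest CI liver, and the rise was 1.63 ± 0.34 (adjusted p = 0.00266). The carbonic anhydrase *Car1* rose by 1.61 ± 0.28. The adjusted p of these 8 genes lay between 3.99e-05 (*Asns*) and 0.00338 (*Pcp4l1*), and in each of them the SI and CI livers did not overlap, as was the case for 10.1% of all tested probe sets. The CI means of *Asns*, *Acp3*, *Abca4* and *Car1* were below the filter level.

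*Pnpla3* fell further than any other tested gene. It encodes a protein of the lipid droplet surface with lipase and acyltransferase activity. The SI livers had intensities of 501, 394, 155, 177 and 276, against 8458, 6750, 9259, 6676 and 1716 in the CI livers. CI replicate 5 was well below the other 4 CI arrays and still over 3 times the highest SI liver. The difference was -4.39 ± 0.47, so that CI was 21.0-fold higher (adjusted p = 1.01e-06), and all 3 tested probe sets of *Pnpla3* passed. *Kcns2*, a modulatory potassium channel subunit, had 76.8, 65.1, 304, 72.3 and 154 in SI and 797, 337, 778, 713 and 912 in CI. SI replicate 3 and CI replicate 2 nearly met, and the SI mean was below the filter level; the difference was -2.59 ± 0.49 (adjusted p = 0.000926).

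*Me1*, cytosolic malic enzyme, had 1384, 1377, 2449, 1797 and 1431 in SI, against 4286, 6813, 8305, 5846 and 5064 in CI. No SI liver came near the CI range, and *Me1* fell by 1.85 ± 0.19 (adjusted p = 3.68e-07). *Prlr*, the prolactin receptor, had 299, 383, 313, 350 and 285 in SI and 803, 1978, 1054, 878 and 966 in CI, a fall of 1.73 ± 0.33 (adjusted p = 0.00123) with no overlap. *Pdk4*, a kinase that shuts off pyruvate dehydrogenase when fat is burned, had 1690, 969, 1483, 1059 and 2232 in SI and 5882, 3657, 3378, 5110 and 4270 in CI. It fell by 1.62 ± 0.30 (adjusted p = 0.000736), again without overlap.

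The phospholipase *Ddhd1* fell by 1.59 ± 0.20, *Tor3a*, an ATPase of the torsin family, by 1.56 ± 0.29 and *Acsl4*, an acyl-CoA synthetase that prefers arachidonate, by 1.49 ± 0.18, with adjusted p between 4.52e-06 and 0.000878. *Cp*, ceruloplasmin, the copper ferroxidase of plasma, had 10604, 9183, 8395, 7842 and 7927 in SI, against 18896, 16479, 26934, 26030 and 26193 in CI. The highest SI liver was well under the lowest CI liver, and *Cp* fell by 1.36 ± 0.19 (adjusted p = 3.47e-05), although 1 of its 3 tested probe sets did not pass. *Irs3*, an insulin receptor substrate found in rodents, fell by 1.29 ± 0.25 (adjusted p = 0.00136), with CI replicate 5 at 244 inside the SI range of 166 to 290. The adhesion receptor *Adgrb2* and the lipid phosphatase *Mtmr7* fell by 1.28 ± 0.30 and 1.22 ± 0.24, with adjusted p = 0.00629 and 0.0016.

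**Figure D1:**
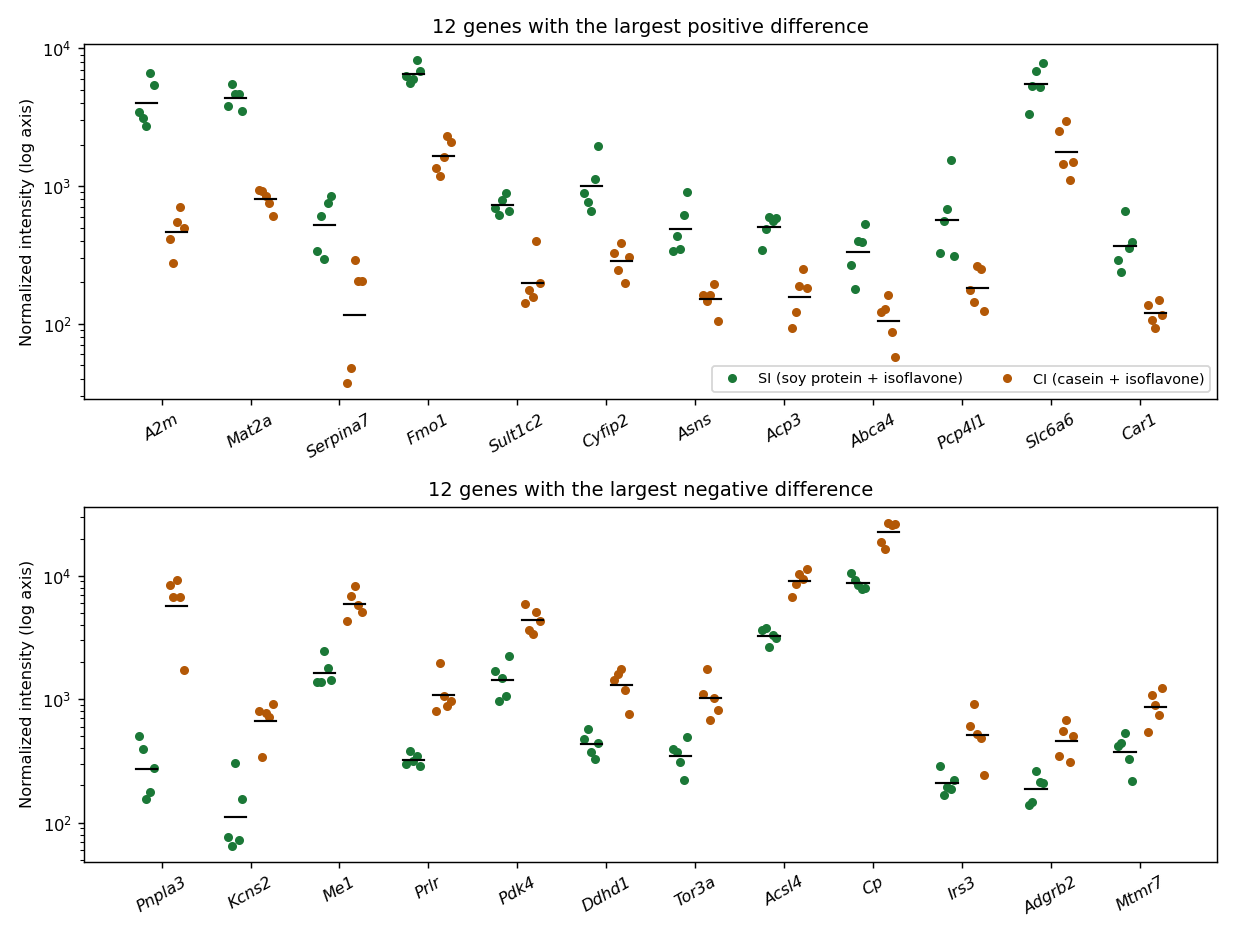
Normalized intensity (log axis) of the 12 stable calls with the largest positive and the 12 with the largest negative difference, 1 point per array, SI (soy protein with isoflavone) left of CI (casein with isoflavone), with a line at the mean of the log values. *A2m* lies between 2727 and 6668 in SI and between 275 and 708 in CI, and *Pnpla3* between 155 and 501 in SI and between 1716 and 9259 in CI; among the genes shown, only *Irs3* has groups that overlap.

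Genes of fatty acid synthesis and NADPH supply were lower in part of the pathway. Of 20 tested genes 5 fell and 0 rose, with a median of -0.356, against 5.54% of genes lower and a median of 0.003 over all genes. Under the 3 other scalings 4 to 6 fell and the median stayed between -0.421 and -0.243, with 1 gene higher after median centring. The 5 were *Me1*, *Fads2*, *Acacb*, *Aacs* and *Elovl2*. *Fads2*, the delta-6 desaturase that starts the synthesis of long polyunsaturated fatty acids, had 6130, 6765, 5226, 6547 and 7976 in SI, against 14254, 16761, 18940, 12906 and 10906 in CI. The groups were apart, and *Fads2* fell by 1.16 ± 0.16 (adjusted p = 4.33e-05). *Acacb*, the acetyl-CoA carboxylase of the mitochondrial surface, whose product malonyl-CoA inhibits fatty acid import, had 237, 182, 194, 160 and 150 in SI and 351, 402, 343, 456 and 375 in CI.

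The fall of *Acacb* was 1.07 ± 0.18 (adjusted p = 0.000243), with no overlap. *Aacs*, which activates acetoacetate for lipid synthesis in the cytosol, fell by 0.98 ± 0.19 (adjusted p = 0.0015), although CI replicate 5 at 196 lay inside the SI range. The elongase *Elovl2* had a difference of -0.53 ± 0.17 (adjusted p = 0.0422); the removal of any one of 6 arrays ended its call (adjusted p up to 0.127). The core enzymes of the pathway did not pass. *Fasn*, fatty acid synthase, had 15189, 17299, 5180, 2768 and 3717 in SI and 12257, 12357, 20542, 15006 and 3579 in CI. Both groups spread over more than 5-fold and overlapped, and the difference of -0.72 ± 0.47 had a 95% interval of -1.67 to 0.24 (adjusted p = 0.332).

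*Scd*, stearoyl-CoA desaturase, differed by -0.49 ± 0.28, *Acaca*, the cytosolic acetyl-CoA carboxylase, by -0.22 ± 0.18 and *Acly*, ATP citrate lyase, by -0.30 ± 0.29, with adjusted p of 0.266, 0.453 and 0.536. Their 95% intervals were -1.07 to 0.09, -0.60 to 0.15 and -0.89 to 0.29, and the groups overlapped. The lipogenic transcription factors *Srebf1* and *Mlxipl* differed by -0.17 ± 0.36 and -0.02 ± 0.12 (adjusted p = 0.802 and 0.937); *Srebf1* changed sign without SI replicate 4, and *Mlxipl* under each of the 3 other scalings. In the livers without added isoflavone, 11 of the same 20 genes were lower in S than in C (4.17% of all genes lower) and 0 were higher, with a median of -0.587. *Fasn* was among them at -1.72 ± 0.47 (adjusted p = 0.0212), but the test of the difference between the 2 exchanges of protein gave 1.00 ± 0.66 (adjusted p = 0.626).

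**Figure D2:**
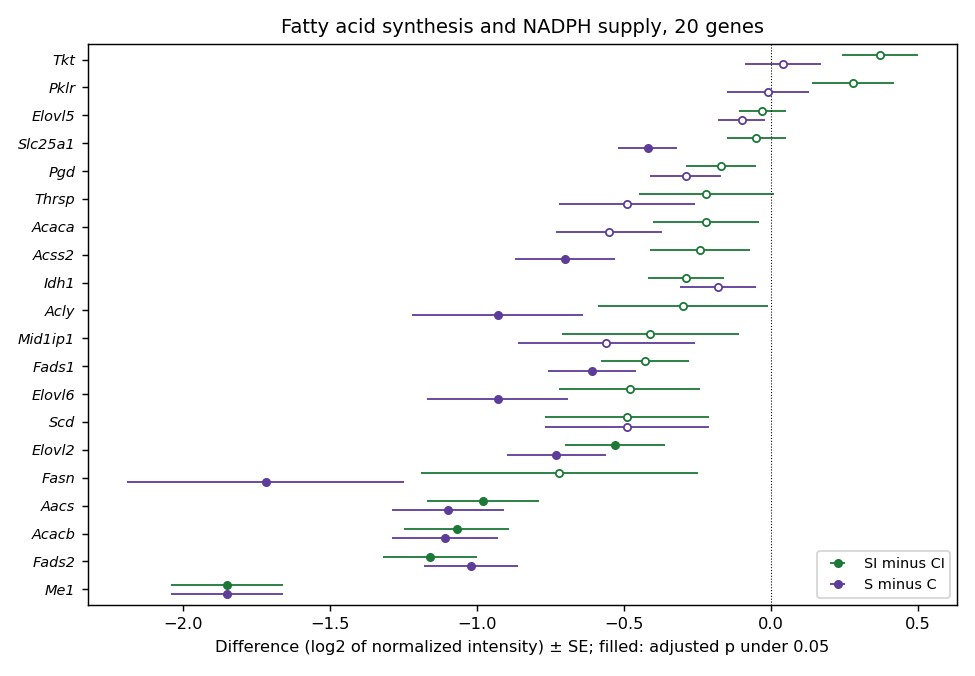
Difference on the log2 scale (± SE) of the 20 tested genes of fatty acid synthesis and NADPH supply, SI minus CI and below it S minus C, with filled points at an adjusted p under 0.05. *Me1* differs by -1.85 in both, while *Fasn* stands at -0.72 in SI minus CI and at -1.72 in S minus C, and 18 of the 20 genes are below 0 in SI minus CI.

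The enzymes that build phospholipid and triglyceride did not follow *Pnpla3*. In the list of triglyceride assembly and lipid droplets, 3 of 20 genes rose (*Agpat3*, *Agpat2* and *Cideb*) and only *Pnpla3* fell. *Agpat3* and *Agpat2*, acyltransferases that make phosphatidic acid, rose by 0.86 ± 0.13 and 0.52 ± 0.11 (adjusted p = 7.65e-05 and 0.00323). The SI livers had 1459, 1690, 1811, 2129 and 2274 for *Agpat3*, against 841, 1108, 1176, 957 and 1033 in the CI livers. The groups did not overlap for that probe set, but only 1 of 4 tested probe sets of *Agpat3* passed, and their mean differed by 0.27 (adjusted p = 0.0685). *Cideb*, which acts in the lipidation of lipoproteins, differed by 0.31 ± 0.09 (adjusted p = 0.0273) and was not stable.

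In cholesterol synthesis, 2 of 18 genes rose and 2 fell, with a median of 0.011. *Stard4*, a cytosolic sterol carrier, fell by 0.67 ± 0.16 (adjusted p = 0.00557), with CI replicate 1 at 1949 well above the 1012 to 1118 of the other CI livers and the SI livers between 652 and 816; only 1 of its 3 tested probe sets passed. *Ebp* (-0.40 ± 0.11), *Mvk* (0.38 ± 0.11) and *Hsd17b7* (0.50 ± 0.17), all enzymes of the pathway, were not stable. Among 14 regulators of lipogenesis and sterols only *Insig2*, which holds SREBP proteins in the endoplasmic reticulum, passed, at -0.63 ± 0.18 (adjusted p = 0.022; 0.0523 without SI replicate 4 and 0.0587 after median centring). The sterol exporter subunits *Abcg5* and *Abcg8*, which secrete cholesterol and plant sterols into bile, differed by 0.92 ± 0.35 and 0.93 ± 0.42 and did not pass (adjusted p = 0.0816 and 0.141), with the CI mean of *Abcg8* below the filter level. The 95% intervals were 0.21 to 1.64 and 0.08 to 1.78. *Abcg5* passed after median centring (adjusted p = 0.0458), and its SI livers lay between 550 and 804, against 151 to 657 in CI.

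In bile acid synthesis and transport, 1 of 17 genes rose and 2 fell (2 and 1 after median centring). *Hsd3b7*, an early enzyme that acts on the sterol ring, had 6782, 8683, 8767, 11178 and 7346 in SI, against 4523, 3716, 3588, 6000 and 4415 in CI. Its groups did not overlap, and it rose by 0.95 ± 0.23 (adjusted p = 0.00926). *Slco1a1*, an organic anion uptake carrier that is higher in male liver, had 1299, 985, 1164, 1056 and 936 in SI and 1933, 1699, 2372, 3167 and 3283 in CI. It fell by 1.16 ± 0.24 (adjusted p = 0.00235) without overlap. *Baat*, which joins bile acids to taurine or glycine, differed by -0.34 ± 0.10 (adjusted p = 0.0206, not stable). *Cyp7a1*, which catalyses the first and limiting step from cholesterol to bile acids, had 1404, 1266, 832, 1011 and 982 in SI and 204, 660, 558, 887 and 274 in CI. Only CI replicate 4 reached the SI range, but the CI livers spread widely, and the difference of 1.27 ± 0.59 did not pass (adjusted p = 0.158; 0.0395 when only the groups compared were fitted). Of 22 genes of sterol efflux and lipoproteins, *Apoa2* (0.39 ± 0.11) and *Tm6sf2* (0.40 ± 0.11) passed without being stable. Median centring gave 6 higher and 1 lower in this list. Hepatic lipase, *Lipc*, fell by 0.48 ± 0.11 (adjusted p = 0.00368), with every SI liver (14105 to 15769) under every CI liver (19386 to 24068).

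In fatty acid oxidation and ketogenesis 6 of 35 tested genes fell, 1 rose and 28 did not pass, with a median of -0.205; over the 3 other scalings 3 to 7 fell, 0 to 2 rose and the median ran from -0.253 to -0.093. Next to *Pdk4* these were *Decr1* and *Decr2*, the reductases that let unsaturated fatty acids enter oxidation in mitochondria and peroxisomes, at -0.52 ± 0.12 and -0.54 ± 0.14 (adjusted p = 0.00571 and 0.0123). The SI livers had 7684, 8399, 9493, 7160 and 7938 for *Decr1*, against 11313, 11920, 14166, 10424 and 10578 in CI, with no overlap. *Decr2* overlapped and lost its call when only the groups compared were fitted (adjusted p = 0.0706). *Eci2*, an isomerase for unsaturated acyl-CoA, fell by 0.30 ± 0.08 (adjusted p = 0.00973) and lost its call after median centring (adjusted p = 0.113). The thioesterase *Acot2* (-0.51 ± 0.14) and the isomerase *Eci1* (-0.56 ± 0.18, not stable) fell as well, and *Acaa2*, the last thiolase of the mitochondrial cycle, rose by 0.28 ± 0.08 (not stable). *Cpt1a*, which controls entry of fatty acids into mitochondria, had 3550, 5353, 5475, 8016 and 11965 in SI and 8056, 8853, 11209, 9162 and 14389 in CI. The groups overlapped, and its difference of -0.68 ± 0.29 had an adjusted p of 0.122.

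ATF4 binds, with a C/EBP partner, a composite DNA element that can be written TGATGNAA. In the 250 bases before the RefSeq start (GRCr8), read on both strands, 5 of 27 genes of the amino acid response list with a sequence held these letters, and so did 3.58% of 27457 genes. The windows below are shown because they are the genes of the list with a match; capitals mark it, TTNCATCA being the same element on the opposite strand. They lie at chr3:126795952-126795983 (*Chac1*, plus strand), chr1:105221500-105221531 (*Fgf21*, minus strand), chr1:190645937-190645968 (*Nupr1*, minus strand), chr12:11664446-11664477 (*Slc7a1*, plus strand) and chr3:161275535-161275566 (*Trib3*, minus strand).
Chac1: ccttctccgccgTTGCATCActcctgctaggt
Fgf21: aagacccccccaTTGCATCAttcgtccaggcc
Nupr1: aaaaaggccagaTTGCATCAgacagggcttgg
Slc7a1: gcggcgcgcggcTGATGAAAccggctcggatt
Trib3: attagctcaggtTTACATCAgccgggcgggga
None of these 5 genes passed in SI against CI. *Trib3*, a pseudokinase that ATF4 turns on, differed by 0.48 (adjusted p = 0.0774), *Chac1*, which degrades glutathione, by 0.48 (adjusted p = 0.0919), *Nupr1*, a stress protein, by -0.10, the hormone *Fgf21* by -0.31 and *Slc7a1*, a carrier of arginine and lysine, by -0.33. The 6 genes of the list that passed and had a promoter entry held no match in this window, which says only that the letters are not in it.

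The amino acid response list had 6 of 29 genes higher and 1 lower, with a median of 0.175; under the other scalings 7 to 11 were higher and the median lay between 0.216 and 0.288. *Asns* had 337, 432, 351, 620 and 909 in SI, against 161, 147, 162, 194 and 105 in CI. No CI liver reached the lowest SI liver. *Aldh18a1*, which makes the precursor of proline and ornithine from glutamate, had 342, 547, 471, 423 and 516 in SI and 218, 215, 204, 193 and 156 in CI. It rose by 1.21 ± 0.14 (adjusted p = 2.33e-06) with a clear gap. The other 4 that rose were *Psat1* of serine synthesis (0.77 ± 0.23), the growth inhibitor *Ddit4* (0.67 ± 0.22), the leucine sensor *Sesn2* (0.65 ± 0.19) and *Slc3a2*, the heavy chain of amino acid carriers (0.55 ± 0.15). Their adjusted p lay between 0.0174 and 0.0412, and for each there were at least 3 arrays whose removal ended the call. *Vldlr*, a lipoprotein receptor, differed by -0.66 ± 0.19 (adjusted p = 0.0253, not stable). Other classical members did not pass, among them *Phgdh* of serine synthesis (-0.02 ± 0.26), *Mthfd2* of mitochondrial folate metabolism (0.23 ± 0.22) and *Atf4* itself (0.18 ± 0.19), named for their place in the pathway after their values were seen.

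In the methionine cycle and transsulfuration list, 3 of 26 genes rose and 1 fell, with a median of -0.041 that became 0.072 after median centring. There 6 genes were higher and 0 lower, while 3 were higher and 4 lower after quantile normalization. Beside *Mat2a* the genes that rose belong to the fate of sulfur. *Csad*, which forms hypotaurine on the way to taurine, had 9540, 9451, 9180, 10083 and 9843 in SI, against 7083, 6136, 4160, 7334 and 4196 in CI. The SI livers were nearly level and all above the CI livers, and *Csad* rose by 0.78 ± 0.16 (adjusted p = 0.00173). *Mpst*, a sulfurtransferase that acts on a product of cysteine, had 5696, 6513, 5457, 5243 and 5907 in SI and 4096, 4117, 3799, 3828 and 3280 in CI. It rose by 0.59 ± 0.09 (adjusted p = 8.64e-05) without overlap. *Bhmt2*, a homocysteine methyltransferase, differed by -0.35 ± 0.10 (adjusted p = 0.0243, not stable). *Mat1a*, the methionine adenosyltransferase typical of adult hepatocytes, differed by -0.38 ± 0.18 and *Cbs*, which commits homocysteine to cysteine, by -0.38 ± 0.15; neither passed (adjusted p = 0.167 and 0.0889), and both were named after their values were seen.

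**Figure D3:**
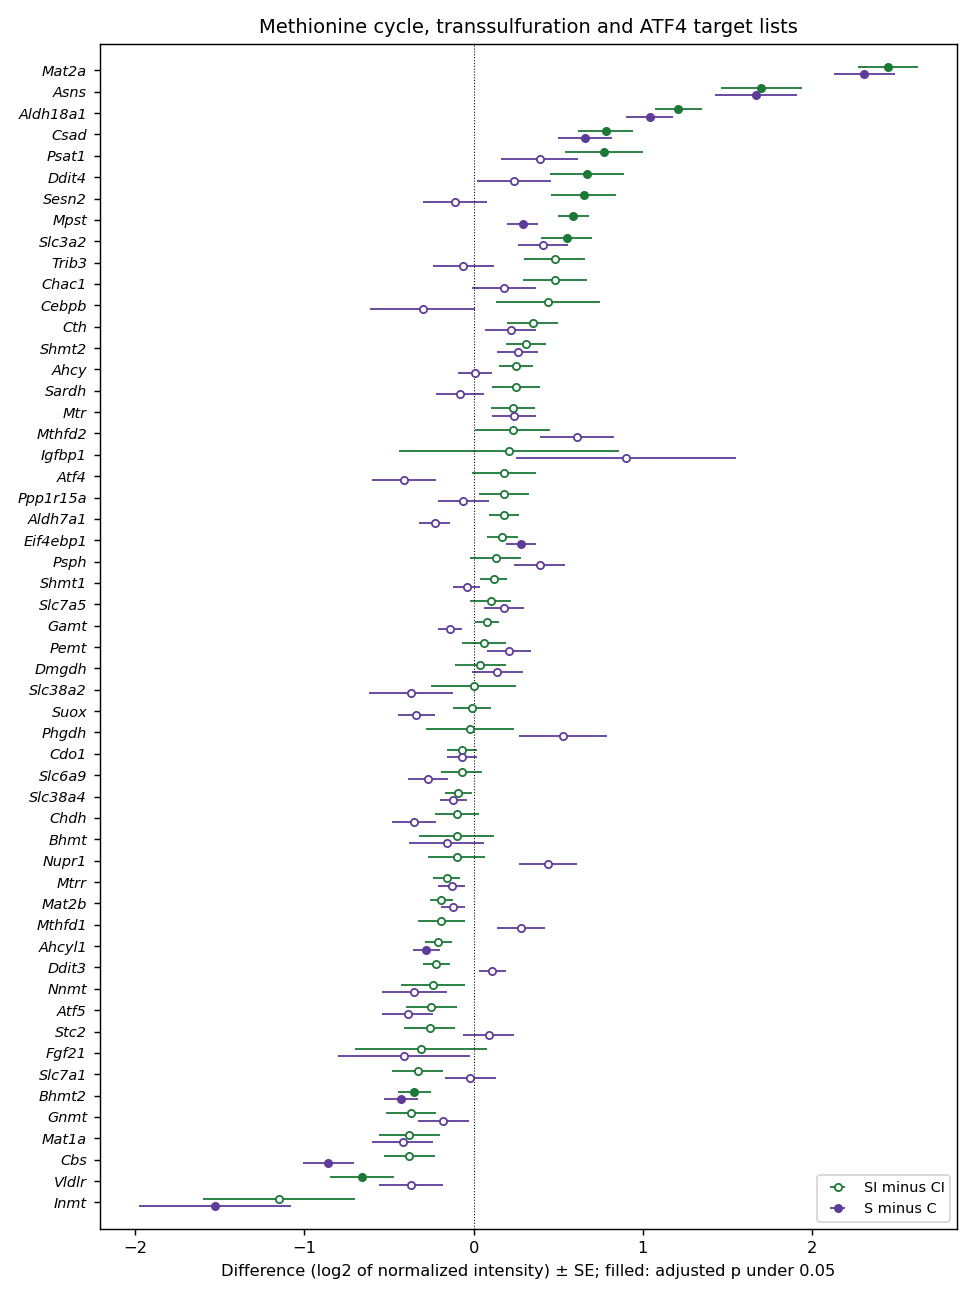
Difference on the log2 scale (± SE) of each tested gene of the methionine and amino acid response lists, SI minus CI and below it S minus C, ordered by SI minus CI, with filled points at an adjusted p under 0.05. *Mat2a* (2.45 and 2.31), *Asns* (1.70 and 1.67) and *Aldh18a1* (1.21 and 1.04) are far to the right in both, and most other genes lie near 0.

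Amino acid catabolism and the urea cycle split. Of 45 genes 4 rose and 5 fell, with a median of -0.006, and after median centring 10 rose and 0 fell. *Got2*, the mitochondrial aspartate aminotransferase, rose by 0.37 ± 0.07 (adjusted p = 0.000745), with SI at 23956, 25849, 21532, 22075 and 22401 and CI at 17931, 17701, 18396, 17906 and 17518. No SI liver reached down to the CI range, but the call was lost when arrays were set to equal median and spread (adjusted p = 0.12). The serine dehydratase relative *Sdsl* and the histidine ammonia-lyase *Hal* rose by 0.40 ± 0.10 and 0.34 ± 0.08 (adjusted p = 0.00747 and 0.0101). *Glud1*, glutamate dehydrogenase, rose by 0.37 ± 0.09 (not stable). *Kynu*, kynureninase of tryptophan breakdown, fell by 0.45 ± 0.12 (adjusted p = 0.0118; 0.0523 after median centring). The other 4 that fell, the last 3 of them not stable, were *Ftcd* of histidine (-0.45 ± 0.12), *Oat* of ornithine (-0.76 ± 0.23), *Mccc1* of leucine (-0.42 ± 0.13) and *Prodh2* of hydroxyproline breakdown (-0.63 ± 0.20).

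Chaperones and enzymes of protein folding had 5 of 26 genes higher and 0 lower, with a median of 0.133. The count depended on the scaling, with 3, 1 and 8 higher after quantile normalization, equal median and spread, and median centring. *Hyou1*, a large chaperone of the endoplasmic reticulum, was the stable one, at 2759, 3569, 2770, 2554 and 2488 in SI and 2318, 1795, 2321, 1961 and 1709 in CI. The groups did not overlap, and it rose by 0.48 ± 0.12 (adjusted p = 0.00942), although the mean of its 2 probe sets did not pass (adjusted p = 0.0553). *Calr* (0.31 ± 0.09), *Dnajb11* (0.34 ± 0.11), *Hspd1* (0.30 ± 0.09) and *Pdia3* (0.23 ± 0.08) passed without being stable.

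Genes that oxidize or conjugate foreign compounds rose more often than they fell: 10 of 47 rose and 2 fell, with a median of 0.048. The counts of the list moved with the scaling, with 6, 5 and 11 higher and 4, 2 and 2 lower after quantile normalization, equal median and spread, and median centring. The median was -0.042, -0.067 and 0.161 in the same order, so its sign was not fixed. *Fmo1* and *Sult1c2* led. The carboxylesterases *Ces2c* and *Ces1d*, which cleave esters in drugs and lipids, rose by 0.83 ± 0.13 and 0.84 ± 0.16 (adjusted p = 0.000126 and 0.00137). The SI livers had 1288, 1636, 1167, 1437 and 1330 for *Ces2c*, against 737, 739, 940, 645 and 794 in CI. For *Ces1d* they had 21134, 16863, 15885, 13573 and 23460, against 11466, 11489, 11280, 8144 and 8209 in CI. Neither gene overlapped between the groups. *Cyp2c7*, a retinoid-metabolizing P450 that is higher in female rats, fell by 0.62 ± 0.11 (adjusted p = 0.000569), with 28456 to 40585 in SI and 49191 to 57190 in CI. *Cyp17a1*, a steroid hydroxylase, fell by 1.13 ± 0.24 (adjusted p = 0.00252), with overlap. *Sult1c2* had 616 to 887 in SI and 141 to 397 in CI, again without overlap. The other 6 that rose, *Cyp4f1* (0.33 ± 0.09), *Cyp2e1*, *Nr1i3*, *Cyp1a2*, *Ephx1* (0.37 ± 0.12) and *Aldh1a1* (0.94 ± 0.31), were not stable. In the glutathione and NRF2 list 2 of 32 genes rose and 2 fell (5 and 1 after median centring). *Gstm7* rose by 0.53 ± 0.15 and *Gsta4*, which detoxifies lipid aldehydes, fell by 0.61 ± 0.15 (adjusted p = 0.019 and 0.0106). *Akr7a3* (0.80 ± 0.25) and *Gsta1* (-0.42 ± 0.12) were not stable.

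Some genes of plasma proteins changed by a large factor, and the counts of their lists stand beside 12.5% of all genes that passed. Of 30 proteins that rise in inflammation, 3 were higher and 1 was lower, with a median of 0.059; of 15 that fall in inflammation, only *Serpina7* passed, and it rose. Both counts moved with the scaling: after quantile normalization, median centring, and equal median and spread, 2, 7 and 2 of the first list were higher and 3, 1 and 1 lower, and 1, 7 and 1 of the second were higher and 1, 0 and 0 lower. *Orm1*, alpha-1-acid glycoprotein, had 38679, 35889, 39346, 41059 and 37018 in SI, against 18578, 21755, 16434, 28887 and 25371 in CI. It rose by 0.82 ± 0.16 (adjusted p = 0.00132), with the SI livers close together and above all CI livers. *Serpina3c*, a serine protease inhibitor, differed by 0.21 ± 0.07 (adjusted p = 0.0397, not stable). *Cp*, which rises in inflammation, fell, as given above. In coagulation and complement, 1 of 32 genes rose and 3 fell, but 2 were higher and 7 lower after quantile normalization, and 5 higher and 2 lower after median centring. *Proc*, protein C, rose by 0.36 ± 0.08 and lost its call at equal median and spread (adjusted p = 0.00299 and 0.203), *Pros1*, its cofactor protein S, fell by 0.47 ± 0.09 (adjusted p = 0.00113) and *C8a*, a chain of the complement attack complex, by 0.66 ± 0.13 (adjusted p = 0.00143). *C5* (-0.42 ± 0.14) was not stable.

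Iron genes included 3 of 19 that rose and 2 that fell (7 and 1 after median centring). *Hfe*, a partner of the transferrin receptor that signals iron status, had 2239, 2312, 2600, 2000 and 2152 in SI, against 1548, 1654, 1621, 1459 and 1584 in CI. It rose by 0.52 ± 0.08 (adjusted p = 7.77e-05), all SI livers above all CI livers. *Slc11a2*, the divalent metal transporter, rose by 0.35 ± 0.08 (adjusted p = 0.00434), but the mean of its 2 probe sets differed by 0.075 (adjusted p = 0.605). *Smad7* (0.49 ± 0.16) and the iron regulatory protein gene *Ireb2* (-0.54 ± 0.17) were not stable. *Hamp*, hepcidin, the hormone that limits iron release, had 652, 16692, 9933, 9021 and 30542 in SI and 5045, 5112, 15515, 16890 and 342 in CI. Each group held 1 liver far below the rest, and the difference of 0.74 ± 0.87 did not pass (adjusted p = 0.619) and turned to -0.21 without CI replicate 5.

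Of 16 genes typical of hepatocytes around the central vein, 8 rose (4 of them stably), 2 fell and 6 did not pass, with a median of 0.372, and over the other scalings 5 to 8 rose, 1 or 2 fell and the median lay between 0.279 and 0.485. *Slc13a3*, a dicarboxylate carrier, had 1036, 1035, 1039, 1419 and 1171 in SI, against 519, 424, 497, 359 and 378 in CI. No overlap was seen, and it rose by 1.39 ± 0.18 (adjusted p = 1.57e-05). *Glul*, glutamine synthetase, which fixes ammonia in the last cell rows before the central vein, had 8044, 7578, 7755, 8165 and 9859 in SI and 4339, 4665, 5488, 5226 and 4169 in CI. It rose by 0.79 ± 0.12 (adjusted p = 0.000107), and all 3 of its tested probe sets passed. The glutamate transporter *Slc1a2* rose by 1.26 ± 0.23 (adjusted p = 0.00059), with 243 to 418 in SI and 102 to 166 in CI, a CI mean below the filter level. *Rgn*, regucalcin, a calcium-binding protein, fell by 0.68 ± 0.15 (adjusted p = 0.00443), with 9601 to 14793 in SI and 16447 to 20718 in CI. *Gulo*, the last enzyme of vitamin C synthesis, rose by 0.34 ± 0.08. *Nr1i3* (1.06 ± 0.33), *Cyp1a2* (0.52 ± 0.16), *Cyp2e1* (0.43 ± 0.13), *Tbx3* (0.40 ± 0.11) and *Oat* had adjusted p between 0.0152 and 0.0376 and were not stable.

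Periportal genes had 4 of 19 higher and 1 lower, with a median of 0.013. *Aldh1b1*, a mitochondrial aldehyde dehydrogenase, had 4104, 6073, 3660, 5525 and 3438 in SI, against 1525, 1772, 1990, 1152 and 1200 in CI. It rose by 1.57 ± 0.19 (adjusted p = 7.38e-06), without overlap. *Cdh1*, E-cadherin, rose by 0.55 ± 0.11 (adjusted p = 0.00211), and *Hal* and *Sdsl*, given above, were the other 2 that rose. *Hsd17b13*, a lipid droplet enzyme, differed by -1.51 ± 0.44 (adjusted p = 0.026, not stable). In liver RNA as a whole, fewer cells of a type and less RNA per cell cannot be told apart.

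Growth hormone, prolactin and sex-biased genes were mostly lower where they passed, but after median centring only the female-biased list kept this. There the growth hormone list had 3 higher and 2 lower, the male-biased list 4 and 2, and the female-biased list 1 and 4. *Prlr* and *Ghr* count in both the growth hormone and the female-biased list. Of 22 genes of the growth hormone, prolactin and IGF axis 1 rose and 2 fell: *Prlr* and *Ghr*, the growth hormone receptor, at -0.45 ± 0.11 (adjusted p = 0.0103; 0.0501 when only the groups compared were fitted). *Stat5b*, which carries the growth hormone signal, differed by 0.47 ± 0.13 (not stable). *Igf1* differed by 0.02 ± 0.07, with a 95% interval of -0.11 to 0.16, and *Socs2* by -0.51 ± 0.46 (adjusted p = 0.863 and 0.506); the sign of *Igf1* turned after quantile normalization and at equal median and spread, and the mean of its 3 probe sets fell by 0.36 (adjusted p = 0.0287). Of 13 genes higher in female rat liver 4 fell (*Cyp2c7*, *Prlr*, *Cyp17a1* and *Ghr*) and 1 rose (*Acsm5*, 0.99 ± 0.26, not stable), and 12 of the 13 were below 0, with a median of -0.58. Of 20 male-biased genes 1 rose and 3 fell, with a median of 0.127. *Car3*, a carbonic anhydrase abundant in male rat liver, rose by 0.64 ± 0.09 (adjusted p = 5.96e-05; 0.0686 at equal median and spread), with 61650 to 69592 in SI and 36790 to 46020 in CI. *Slco1a1* and *Rgn* fell, and so did *Akr1c14* (-0.43 ± 0.12, not stable).

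The calls of further lists follow, to be read against the 12.5% of all genes that passed. Of 14 thyroid hormone genes, *Serpina7* rose and *Me1* fell, with *Thrb*, a thyroid hormone receptor, lower as well at -0.37 ± 0.10 (not stable). Median centring gave 2 higher and 1 lower in this list. Of 28 genes of insulin, glucose and glycogen only *Irs3* passed as deposited. With median centring 3 genes of this list were higher and 1 lower, and with quantile normalization 0 and 2. In the cell cycle list, 2 of 39 genes passed, *Stmn1* at 0.61 ± 0.16 (adjusted p = 0.0153; 0.0625 without CI replicate 5) and *Tk1* at 0.42 ± 0.12, neither of them stable. In the p53 list 3 of 21 rose (*Sesn2*, *Ddit4* and *Tp53inp1*) and 1 fell (*Ccng1*), in the clock list 2 of 18 fell (*Rora* and *Clock*; 2 higher and 0 lower after median centring) and in the glucocorticoid list 1 of 16 rose (*Hsd11b1*, which regenerates active glucocorticoid). None of these p53, clock and glucocorticoid calls was stable; for *Rora*, at -0.76 ± 0.23, the removal of any one of 7 arrays ended the call (adjusted p up to 0.095) and for *Hsd11b1*, at 0.33 ± 0.10, that of any one of 8 (up to 0.0901). *Onecut1*, a hepatocyte transcription factor, had 917, 415, 2196, 75.5 and 5015 in SI and 4343, 4605, 317, 4462 and 4176 in CI. The SI livers spread over the whole range and CI replicate 3 stood far below its group, and the difference of -1.71 ± 0.89 did not pass (adjusted p = 0.213).

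**Figure D4:**
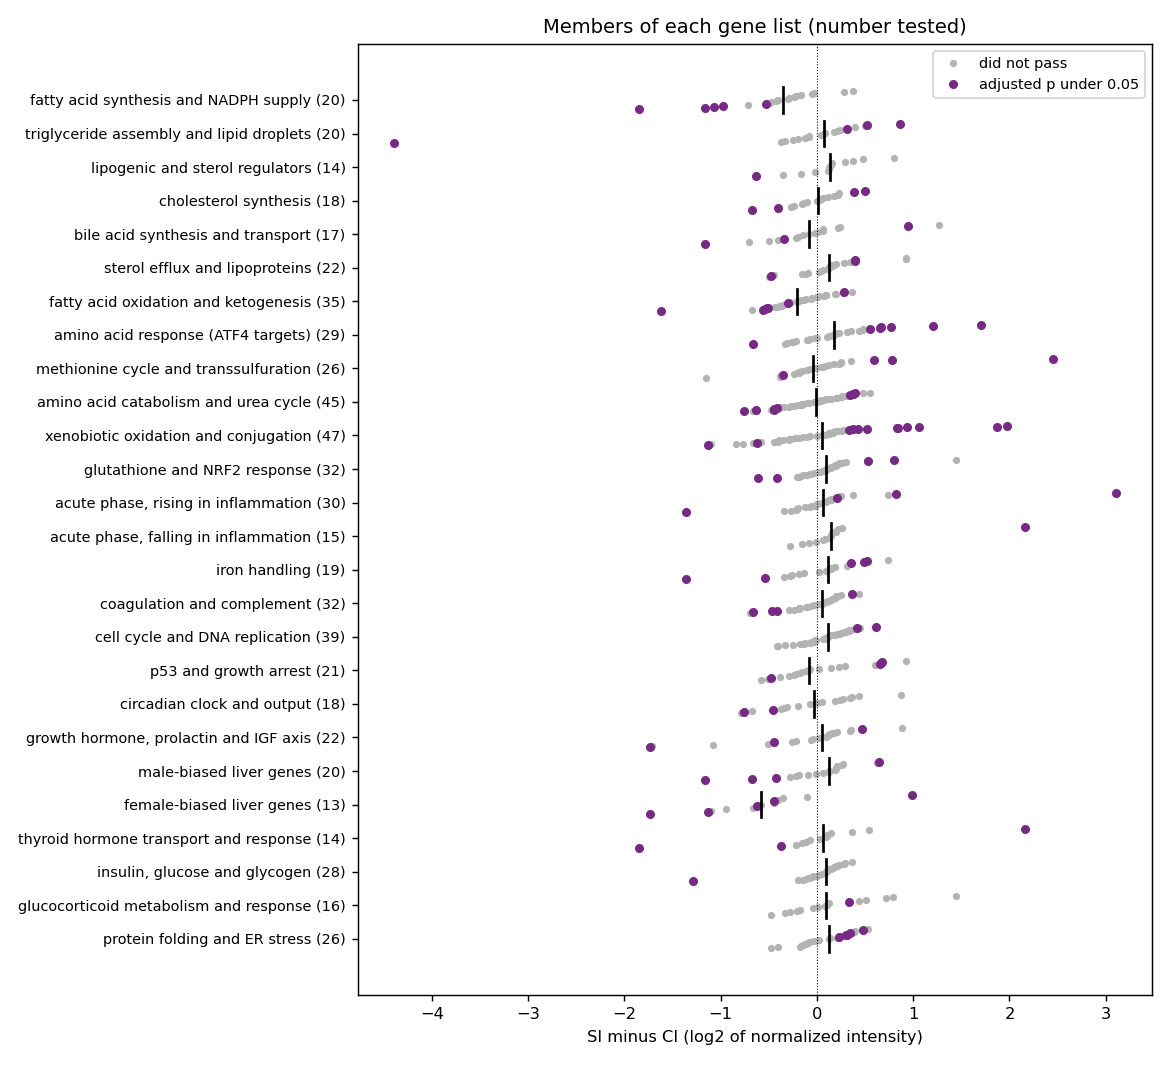
Difference SI minus CI on the log2 scale for each tested member of the 26 pathway lists, 1 point per gene, with genes at an adjusted p under 0.05 in purple and a line at the median of each list. The medians run from -0.58 (female-biased genes) to 0.175 (amino acid response), and most lists sit near 0 with a few members far out, such as *Pnpla3* at -4.39 and *A2m* at 3.11.

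Markers of other cell types moved little, with exceptions below. None of the markers of sinusoidal endothelium, bile duct, lymphocytes, blood, neutrophils or adipose tissue passed, out of 12, 3, 8, 7, 3 and 7 tested. *Mrc1*, a scavenger receptor of macrophages and endothelium, fell by 0.47 ± 0.13 and the stellate cell marker *Acta2* rose by 0.33 ± 0.11 (adjusted p = 0.0191 and 0.0442), and neither was stable. The summed intensity of 14 macrophage markers was 33758 to 50485 in SI and 31530 to 42404 in CI, and that of 18 stellate cell markers 27954 to 36345 and 25065 to 34851. Defining hepatocyte markers were bright, their sum of 11 genes being 486492 to 611193 in SI and 472971 to 534151 in CI, and *Serpina1*, alpha-1-antitrypsin, passed at 0.24 ± 0.06 but not after quantile normalization (adjusted p = 0.0157 and 0.463). The summed intensity of 15 exocrine pancreas markers was lower in SI, 2863 to 3723, than in CI, 3812 to 5601, with 11 of them below the filter level on average. Of its 3 tested genes *Cela1*, an elastase, fell by 0.68 ± 0.19 (adjusted p = 0.0182), not stably. With 1113 to 1797 in SI and 1922 to 2905 in CI, *Cela1* made up much of that sum. Of the 3 tested genes 1 had a positive difference. Their median was -0.118, and it lay between -0.005 and -0.001 under the other scalings. The sum of 10 intestine and kidney markers was 1274 to 1481 in SI and 1433 to 2241 in CI. There *Fabp2*, the intestinal fatty acid binding protein, had 217, 169, 272, 347 and 224 in SI and 446, 486, 535, 555 and 620 in CI, a fall of 1.14 ± 0.22 (adjusted p = 0.00143) without overlap. The part of these tissues in the results for lipid genes was not tested.

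The same exchange of protein without added isoflavone was tested in other animals. In S against C, 1351 probe sets (7.25%) and 856 genes (8.0%) passed, 410 genes higher (3.83%) and 446 lower (4.17%), and these 20 arrays share none between the comparisons, although 1 fit estimated the spread for both. The 468 genes called in both were 34.9% of the SI against CI calls and 54.7% of the S against C calls, and 467 of them had the same sign. Of the 1342 genes called in SI against CI, 1255 (93.5%) had the same sign in S minus C, against 64.7% of all genes. Across all 10699 genes, which are not independent replicates, the 2 differences correlated at r = 0.547 (Spearman's rho 0.465). *Pnpla3* differed by -4.36 ± 0.47, *Mat2a* by 2.31 ± 0.18, *Fmo1* by 2.05 ± 0.18 and *Me1* by -1.85 ± 0.19 in S minus C. *A2m* and *Serpina7* differed by 3.77 ± 0.37 and 3.29 ± 0.53 there, with the C mean of *Serpina7* below the filter level. *Hamp* (3.56 ± 0.87) and *Onecut1* (-3.50 ± 0.89) passed in S against C with adjusted p = 0.0102 and 0.0137, but their tests of the difference between the comparisons did not (adjusted p = 0.513 and 0.647). The same holds for *Cyp17a1* (-0.08 ± 0.24 in S minus C; adjusted p of the difference 0.451) and *Pros1* (0.07 ± 0.09; adjusted p 0.364), which passed in SI against CI and not in S against C.

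That difference of differences, (SI minus CI) minus (S minus C), passed for 3 of 18625 probe sets (0.0161%), while 1716 (9.21%) had an unadjusted p under 0.05. On simulated data this test recovered 26.9% of 1.5-fold and 74.6% of 2-fold changes, so small differences can be missed. *Kcns2* had 115, 752, 406, 326 and 861 in S and 124, 97.9, 176, 178 and 189 in C, with the C mean below the filter level. It was thus low in SI and in C and higher in CI and in most S livers, and the difference of differences was -4.01 ± 0.69 (adjusted p = 0.0262). *Bpifa5*, of a family of lipid-binding secreted proteins, had 280, 296, 316, 361 and 188 in SI and 554, 430, 497, 528 and 415 in CI, but 342, 398, 309, 493 and 428 in S and 275, 279, 286, 251 and 166 in C. SI lay below CI and S above C with no overlap in either pair, and the difference of differences was -1.43 ± 0.26 (adjusted p = 0.0397). The third was a probe set with no gene symbol, at -2.79 ± 0.47 (adjusted p = 0.0262). The next smallest p belonged to *Endog*, a mitochondrial nuclease, among probe sets with a gene symbol (-0.71 ± 0.15, adjusted p = 0.264). The adjusted p of *Kcns2* ran from 0.00224 to 0.0928 and that of *Bpifa5* from 0.032 to 0.119 over 20 arrays left out in turn, and the calls were lost in 13 and 15 of the 20.

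**Figure D5:**
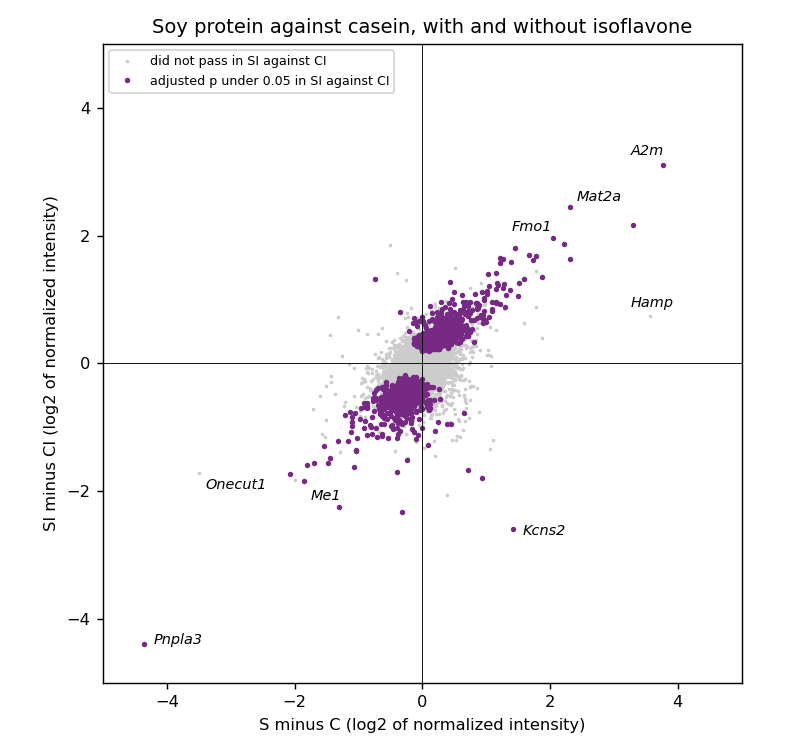
Difference SI minus CI (y axis) against S minus C (x axis), both on the log2 scale, 1 point per gene, with genes at an adjusted p under 0.05 in SI against CI in purple. *Pnpla3* (-4.39 and -4.36) and *A2m* (3.11 and 3.77) lie at opposite ends near the diagonal, *Kcns2* (-2.59 and 1.42) lies in the quadrant of opposite signs, and *Hamp* (0.74 and 3.56) lies near the horizontal axis.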

How the data were processed

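Liver RNA of 30 rats was measured on Affymetrix Rat Genome 230 2.0 arrays, 1 array per animal, 5 per diet. The authors deposited 1 linear normalized intensity per probe set and array; per the labels, the arrays were normalized with SuperNORM, whose parameters the labels list per array. CI replicate 3 and C replicate 3 carry the same parameters there, although their values differ (r = 0.966 of log2 values).

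Of 31099 probe sets, 57 control probe sets were left out. Values were raised to a floor of 16 and taken to log2, and 18625 probe sets above the 40th percentile of mean log2 intensity were tested. All 30 arrays were fitted by diet with limma 3.58.1 (R 4.3.3; 24 residual degrees of freedom, trended empirical Bayes), with contrasts SI minus CI, S minus C and their difference. Adjusted p-values are limma's with Benjamini-Hochberg adjustment over all tested probe sets, called under 0.05. They reflect the spread between the animals of a diet. The platform annotation gave 1 gene symbol for 20826 probe sets, several for 436 and none for 9780, and a gene took its brightest tested probe set.

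Named genes were the 12 largest stable calls in each direction, up to 4 stable calls per list with the smallest p (or, in a list with none, its call of smallest p), a set list of genes given whatever their result (2 of them are not analysed here), and the probe sets leading the difference of differences; placeholder symbols were skipped among the largest. Stable means that the call held without each SI or CI array and after quantile normalization. The members, the 26 pathway lists and the 13 cell type lists (854 genes, 665 tested) were chosen with earlier results of these data known. Data were simulated on 18625 probe sets with independent normal noise and no shift of whole arrays, and 200 probe sets were changed in SI. The SI against CI contrast recovered 50.7% of 1.5-fold, 92.5% of 2-fold and 98.5% of 4-fold changes, with 9 false calls among 170. The difference of differences recovered 26.9%, 74.6% and 93.9% of the same changes. In the deposited data genes are not independent and array medians differ, so these shares need not hold there. Alternatives were the scaling, floor, filter, threshold, arrays fitted, array weights, replicate block and arrays left out. Promoter sequences are from RefSeq (GRCr8).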

Additional observations from a re-analysis of the deposited data

Results flagged for a closer look

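Within groups of 5 animals, the gap of the outermost array to its neighbour was set against the range of the group for 220 groups of values (gene by diet, and array measures), and 8 exceeded 0.710 of the range. Chance alone passes that level in about 1 in 20 groups. In CI, *Onecut1* was low in replicate 3 (gap 0.963 of the range), *Slc11a2* high in replicate 3 (0.908), *Stard4* high in replicate 1 (0.848), *Insig2* low in replicate 4 (0.819), *Pnpla3* low in replicate 5 (0.806) and *Kcns2* low in replicate 2 (0.752). In SI, *Glul* was high in replicate 5 (0.716), and 0.677% of the probe sets of replicate 4 were at or below the floor of 16, against 0.361% to 0.448% in the other SI arrays (0.724). *Insig2* and *Slc11a2* spread little in CI, so that the single array stands out at a small distance (10007 against 11141 to 11409 for *Insig2*).

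The exchange of casein for soy protein differed by whether isoflavone was added for 3 probe sets, by the test of (SI minus CI) minus (S minus C). These were *Kcns2* (-4.01), *Bpifa5* (-1.43) and a probe set with no gene symbol in the annotation used (-2.79, adjusted p = 0.0262 by limma). The unnamed one had 44.4 to 128.6 in SI and 301.0 to 364.5 in CI, but 164.4 to 303.5 in S and 84.2 to 268.0 in C, and its adjusted p ran from 0.00917 to 0.0928 over 20 arrays left out in turn, with the call lost in 12.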

How the results depend on the processing

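The count of 2168 called probe sets in SI against CI ran from 1887 to 2771 under the other scalings, floors, filters, variance trend, array weights and a fit of only the groups compared, with the splits of direction given above; at a threshold of 0.01 it was 772 (590 in S against C). Leaving out single arrays gave 1353 to 2343 in SI against CI, 898 (without S replicate 2) to 1366 in S against C and 0 to 5 for the difference of differences. That last count was 0 with the 60th percentile filter, 0 at a threshold of 0.01, 0 without C replicate 3 and CI replicate 3, and 1 when only the groups compared were fitted. The replicate numbers were not taken as pairs in the main fit, since not every pair was over 0.1, although same-numbered arrays were more alike on average. The r of same-numbered deviations was -0.006 to 0.252 over 5 pairs, 3 of them over 0.1 (mean 0.117, against -0.029 for other pairs). Of the 5 SI arrays, 3 correlated best with the CI array of their own number. In S and C, r averaged 0.14 for same-numbered pairs and -0.035 for other pairs, and the main fit does not model the replicate number. With the replicate number as a block the calls were 2541 in SI against CI, 1693 in S against C and 1 for the difference of differences. No called named gene was lost there, and *Cpt1a* passed (-0.68, adjusted p = 0.0441 by limma). Of 88 called named genes, none reversed in 2978 alternatives and 69 kept their call in all but the threshold of 0.01; median centring and equal median and spread each ended 5. Signs turned for genes that did not pass: *Srebf1* (-0.40 to 0.077 without single arrays, positive without SI replicate 4), *Mlxipl* (0.0037 after quantile normalization, 0.094 after median centring, 0.015 at equal median and spread, and -0.08 to 0.015 without single arrays), *Hamp* (-0.21 without CI replicate 5 to 1.63 without SI replicate 1), *Igf1* (-0.14 after quantile normalization, -0.10 at equal median and spread, -0.36 when its probe sets were averaged, and -0.025 to 0.056 without single arrays or the pair of C replicate 3 and CI replicate 3) and *Endog* (0.04 after median centring). The share of probe sets at the floor differed between SI and CI by -0.0387 with a floor of 1 (exact permutation p = 0.00794, the smallest 5 against 5 animals allow), 2.22 percentage points with a floor of 64 (p = 0.0238) and -0.000483 to 0.0784 without single arrays. The SD of log2 values differed by 0.0556 in the main setting (exact permutation p = 0.0476, adjusted p = 0.111 over 7 array measures). With floors of 1 and 64 this SD differed by 0.0507 and 0.0395 (exact p = 0.0635 and 0.0714), and without single arrays by 0.042 to 0.0678. The sigma parameter of SuperNORM differed by -0.0286 (exact p = 0.0238, adjusted p = 0.0833), and without single arrays by -0.0362 to -0.0238. The gamma parameter differed by -4.57 (exact p = 0.111, adjusted p = 0.194), and without single arrays by -6.33 to -3.47. The cause of these shifts was not tested. Signal limits the folds where a group mean lies under the filter level, as for *Kcns2* in SI and *Asns* in CI.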

Other observations

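These genes were chosen after their values were seen. Carbonic anhydrases, which interconvert carbon dioxide and bicarbonate, were higher with soy protein in 5 of 10 tested members and lower in 0. Over all genes 7.0% were higher and 5.54% lower, and a family picked by its values cannot be tested on them. Beside *Car1* and *Car3* these were *Car5b* of mitochondria (0.91 ± 0.19, adjusted p = 0.00222 by limma, with the CI mean below the filter level), *Car2* (0.74 ± 0.16, adjusted p = 0.00449) and *Car8*, a relative without enzyme activity (0.71 ± 0.13, adjusted p = 0.000671). The SI and CI livers did not overlap in any of the 5, as was the case for 10.1% of all tested probe sets.

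The other genes named here passed as single genes and were in no list. *Ethe1*, the mitochondrial persulfide dioxygenase, rose by 0.84 ± 0.21 (adjusted p = 0.00857, with overlap) and the sulfate transporter *Slc13a4* by 0.76 ± 0.15 (adjusted p = 0.00129). The sphingomyelinases *Smpd3* and *Smpd1*, which release ceramide, rose by 0.96 ± 0.14 and 0.72 ± 0.10 (adjusted p = 4.55e-05 and 6.21e-05). *Adam11*, a catalytically inactive member of the ADAM family, and *Gfra3*, a receptor of the GDNF family, rose by 1.59 ± 0.18 and 1.24 ± 0.15 (adjusted p = 2.33e-06 and 3.62e-06). *Afp*, alpha-fetoprotein, and *Nat8*, an acetyltransferase of kidney and liver, rose by 0.86 ± 0.18 and 1.41 ± 0.30 (adjusted p = 0.00313 for both, *Nat8* with overlap). *Fabp5*, a fatty acid binding protein, and the ribonuclease *Rnase4* fell by 1.21 ± 0.25 and 1.11 ± 0.17 (adjusted p = 0.00232 and 9.46e-05).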
